A study of Mus musculus with 20 samples.

Results

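The genes described here are 8 markers of stratified squamous epithelium, the layered lining of skin, mouth, oesophagus and anal canal: Krt5, Krt14, Krt13, Krt4, Krt6a, Krt15, Trp63 and Dsg3. They were picked by symbol because most of them stood far above the rest in a single colon library, chow Alb 2, so the contrast of that library with the others is given as a description, with no p-value. All 8 were found once in each count table, among 56748 genes on chow and 31184 genes on the high fat diet (HFD). The tables hold RNA-seq read counts from 20 mouse colons, 4 animals in each of 5 groups. Chow Alb animals lacked Pcca in the liver through Albumin-Cre, chow Vill and HFD Vill animals lacked it through Villin-Cre, whose promoter is active in gut epithelium, and chow ff and HFD ff animals were Pcca ff littermate controls. Pcca encodes a subunit of propionyl-CoA carboxylase, a mitochondrial enzyme of propionate breakdown. Chow animals were 9 weeks old at death. HFD animals were males of 18 weeks that had eaten a diet with 60% of its calories from fat for 12 weeks, and all animals were fasted for 4 hours. Sections of colon were rinsed and frozen before whole-tissue extraction and poly-A selection, and the sources used here do not say which stretch of the colon was taken.

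Keratins are the intermediate filament proteins of epithelial cells and assemble as pairs of a type I and a type II chain. Krt5 (type II) pairs with Krt14 (type I) in the basal layer of squamous epithelia, and Krt4 (type II) pairs with Krt13 (type I) above it in moist, internal squamous linings. Krt15 is a further type I keratin of basal cells, Krt6a is a type II keratin of oral epithelium, hair follicles and healing skin, Trp63 encodes p63, the transcription factor on which stratified epithelia depend, and Dsg3 encodes a cadherin of their desmosomes. The columnar epithelium of the colon relies on other keratins, chiefly Krt8, Krt18, Krt19 and Krt20, and it meets squamous epithelium at the anal canal.

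In the mm39 coordinates of the deposited tables, the keratin members lie in clusters of related genes. The type I genes sit together on the minus strand of chromosome 11, Krt13 at 100008153 to 100012392, Krt15 at 100022584 to 100026754 and Krt14 at 100093988 to 100098374. The type II genes sit on the minus strand of chromosome 15, Krt6a at 101598345 to 101602742, Krt5 at 101615505 to 101621333 and Krt4 at 101826970 to 101833170. Trp63 is on the plus strand of chromosome 16 at 25502513 to 25710852. Promoter windows from RefSeq (build GRCm38.p6, a different build from that of the counts) were matched for 3 of the 8 members. The windows of Krt5 and Krt13, a gene of each keratin cluster that was high in Alb 2, are shown because both hold the same letters close to the start. Each runs from 250 bases before to 50 bases after the annotated start, and capitals mark a pair of 7-base motifs, each searched on both strands. The A-rich motif reads ATAAAAG. The GC-rich motif, which differs from its reverse complement by a shift of 1 base, reads GGCATGC. The Krt5 window is chr15:101712856-101713155 and the Krt13 window is chr11:100121517-100121816, both on the minus strand.
Krt5: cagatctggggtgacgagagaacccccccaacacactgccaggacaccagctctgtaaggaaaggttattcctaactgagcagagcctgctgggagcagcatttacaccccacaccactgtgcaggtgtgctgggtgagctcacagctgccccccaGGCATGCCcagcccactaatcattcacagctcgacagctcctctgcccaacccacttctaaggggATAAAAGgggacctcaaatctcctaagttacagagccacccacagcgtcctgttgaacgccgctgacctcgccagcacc
Krt13: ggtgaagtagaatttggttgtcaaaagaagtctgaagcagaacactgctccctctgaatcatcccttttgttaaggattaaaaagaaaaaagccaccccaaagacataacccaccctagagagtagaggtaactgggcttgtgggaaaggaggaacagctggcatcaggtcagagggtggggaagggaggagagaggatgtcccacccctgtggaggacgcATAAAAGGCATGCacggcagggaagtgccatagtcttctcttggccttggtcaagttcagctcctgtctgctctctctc
The A-rich motif begins 29 bases before the start in both windows. The GC-rich motif begins 94 bases before the start of Krt5 and, read on the other strand, at 93 bases, and it begins 23 bases before the start of Krt13, where it shares a base with the A-rich one. The A-rich motif occurs in 5.42% and the GC-rich motif in 2.75% of 32544 promoter windows of this length. Neither was found in a window at another annotated start of Krt13 or in the window of Krt14, which also lies at an internal start. The motifs were picked after these windows had been read.

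The libraries hold 27.9 to 40.4 M counted reads on chow (38 M in Alb 2) and 16.9 to 24.4 M on HFD. Levels are CPM, read counts scaled by library size and TMM factors over all genes of a table, and the tables were scaled separately, so a level in one table set beside a level in the other carries that limit. A count of 3 reads, used as the floor of detection, equals 0.0699 to 0.114 CPM in a chow library and 0.118 to 0.174 CPM in an HFD library. Intervals on single libraries are exact 95% Poisson limits and cover counting error only. Intervals on ratios to pooled libraries are exact 95% binomial limits on the read counts. They too cover counting error only and leave out the spread between the pooled animals, so they do not test a difference. Colonocyte genes were read in every library, with Krt8, the main simple-epithelial type II keratin, at 3327 to 6430 CPM. Pcca, counted over the whole gene, was at 39.0 to 58.0 CPM in chow Alb, 27.9 to 33.7 CPM in chow Vill and 39.4 to 57.5 CPM in chow ff colons, and at 33.0 to 36.8 CPM in HFD Vill and 29.6 to 59.4 CPM in HFD ff colons. All chow libraries carry Xist at 806 CPM or more and no Ddx3y read, and all HFD libraries carry Ddx3y at 79.0 CPM or more, so diet, age and sex cannot be told apart between the tables. Apart from replicate numbers, nothing in the labels ties animals across groups. In bulk colon fewer cells of a type and less RNA per cell cannot be told apart.

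Krt5, the basal type II keratin, had 1542 reads in chow Alb 2, which is 96.3% of all its reads on chow. The other chow Alb colons had 10, 11 and 0 reads, the Vill colons 6, 0, 0 and 2, and the ff colons 5, 14, 0 and 11. In CPM, Alb 2 stood at 39.8 (37.8 to 41.8) and the next chow library, ff 2, at 0.439. The level in Alb 2 was 246 times that of the other 11 chow libraries pooled (190 to 325) and 90.6 times that of ff 2. On HFD the gene was nearly silent, with 0, 2, 0 and 0 reads in Vill colons and 0, 3, 1 and 4 reads in ff colons. Each of the 5 groups held at least 1 library with no Krt5 read.

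Krt14, the type I partner of Krt5, had 1365 reads in Alb 2, but unlike Krt5 it was read in all 20 libraries. The other chow Alb colons stood at 1.04, 1.11 and 1.19 CPM, the Vill colons at 0.517, 0.544, 0.652 and 0.800 CPM, and the ff colons at 1.10, 0.816, 0.872 and 1.76 CPM. Alb 2 was at 35.2 CPM (33.4 to 37.1), 37.6 times the pooled level of the other 11 (33.4 to 42.5) and 20.0 times that of ff 4, the next library. Per length, on the authors' deposited FPKM, Krt14 and Krt5 stood at 19.8 and 17.9 in Alb 2. Krt14 had the higher deposited FPKM of the pair in all 20 libraries, as in chow ff 4 with 0.982 for Krt14 and 0.139 for Krt5.

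Krt13 and Krt4, the pair of internal squamous linings, did not move together. Krt13 had 413 reads in Alb 2 (10.7 CPM, 9.65 to 11.7), against 6, 0 and 0 in the other chow Alb colons, 0, 1, 0 and 2 in Vill colons and 4, 6, 0 and 23 in ff colons. That is 92.6 times the pooled level of the other 11 libraries (67.3 to 130) and 16.3 times that of ff 4. Krt4 had 4 reads in Alb 2, a ratio of 2.69 to the pooled others with an interval of 0.645 to 8.57. Its other reads on chow were 2, 0, 4 and 4 in Vill colons and 4 in ff 3 alone among ff colons, with none in the remaining Alb colons. Krt4 was therefore at or near the floor in every library, Alb 2 included.

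Krt6a and Krt15 bracket the range of the remaining keratins. Krt6a had 212 reads in Alb 2 (5.47 CPM) and 2 reads in all other chow libraries together, both in ff 4, a ratio of 999 that the small count leaves between 273 and 8299. Krt15 had 254 reads in Alb 2 (6.55 CPM, 5.77 to 7.41) and at least 6 in every other chow library, with 11, 17 and 26 in the other Alb colons, 23, 17, 45 and 6 in Vill colons and 20, 9, 21 and 14 in ff colons. The highest of these was Vill 3 at 1.05 CPM. Its ratio was 11.4 to the pooled others (9.50 to 13.8) and 6.25 to Vill 3. Krt15 was thus read at a low level in every colon, and Krt6a was all but unread outside Alb 2.

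Trp63 and Dsg3, the transcription factor and the cadherin, had fewer reads in Alb 2 than any keratin member but Krt4. Trp63 had 58 reads in Alb 2 (1.496 CPM, 1.14 to 1.93), against 2, 0 and 0 in the other chow Alb colons, 3, 1, 2 and 0 in Vill colons and 0, 0, 0 and 6 in ff colons. It was 39.0 times the pooled others (21.5 to 75.8) and 8.77 times ff 4. Dsg3, on the plus strand of chromosome 18 (20643331 to 20680516), had 125 reads in Alb 2 (3.225 CPM, 2.68 to 3.84), against 36, 33 and 31 in the other Alb colons, 94, 56, 29 and 54 in Vill colons and 38, 54, 57 and 24 in ff colons. With Vill 1 at 3.03 CPM, Alb 2 was 1.06 times the next library and 2.33 times the pooled others (1.90 to 2.84). Per length Trp63 and Dsg3 stood at 0.177 and 0.458 deposited FPKM in Alb 2, below Krt13 at 5.79, Krt15 at 3.67 and Krt6a at 2.24, and above Krt4 at 0.0479. Of the 8 squamous markers, Krt4 and Dsg3 thus did not set Alb 2 apart from all other chow libraries.

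**Figure D1:**
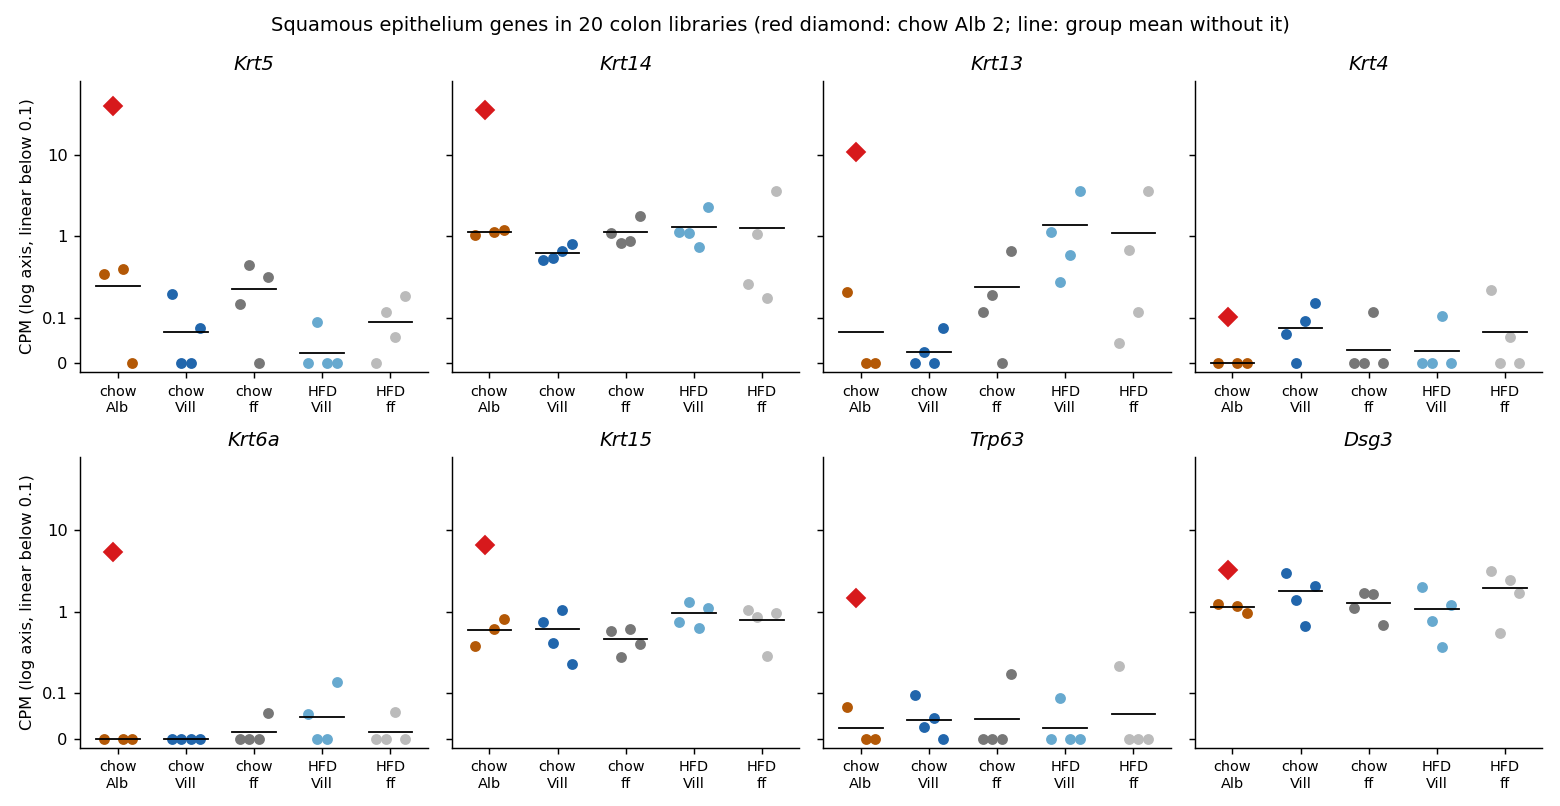
CPM of the 8 genes (one panel each; log axis, linear below 0.1) in chow Alb, chow Vill, chow ff, HFD Vill and HFD ff libraries. Circles are single libraries, the red diamond is chow Alb 2 and short lines are group means without it. The diamond stands at 39.8 CPM for Krt5 and 35.2 CPM for Krt14, and within the spread of the other libraries for Krt4.

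With a gene counted as past the fold when Alb 2 had at least 30 reads and at least 10 times the CPM of the highest other chow library (never taken below that of 3 reads), 4 of the 8 members passed: Krt5, Krt6a, Krt14 and Krt13. Over all genes with 30 reads in Alb 2 the share was 0.0803%, or 13 of 16198; the members were chosen on this contrast, so nothing is read from the difference. Krt13 at 16.3 times was the member just inside the limit and Trp63 at 8.77 times the one just outside. At 5-fold 6 members passed and at 20-fold 2, Krt5 and Krt6a. The deposited table of the authors, which kept all 4 Alb animals, gives log2 fold changes for Alb over ff of 6.60 for Krt6a, 5.50 for Krt5, 3.52 for Krt13, 3.2 for Trp63, 3.10 for Krt14 and 2.18 for Krt15. In the authors' deposited table Dsg3 is at 0.39 and Krt4 at -0.12. None of the 8 members has a deposited adjusted p under 0.05 in that comparison.

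The 9 further genes past the fold in Alb 2 were named after their values were seen. Krt6b, a near copy of Krt6a, had 84 reads in Alb 2 and at most 6 elsewhere on chow, a level 12.4 times the next library. Ltf, the iron-binding secreted protein lactotransferrin, stood at 23.1 CPM in Alb 2 and at most 0.566 CPM in the other chow libraries. Olfm4, the secreted glycoprotein olfactomedin 4, stood at 18.3 CPM against at most 0.314 CPM, and Muc5b, a gel-forming mucin, at 3.30 CPM against at most 0.152 CPM. Tmprss11g, Tmprss11b and Sprr2d had no read in the other 11 libraries and were at least 21.5-fold, 14.7-fold and 12.4-fold higher in Alb 2, taking 3 reads per library as the floor. The first pair encodes transmembrane serine proteases and Sprr2d a small proline-rich protein of the cornified envelope. Padi1, a peptidylarginine deiminase of keratinising epithelia, had 125 reads against at most 4, and Serpinb11, a clade B serpin, 95 against at most 4.

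**Figure D2:**
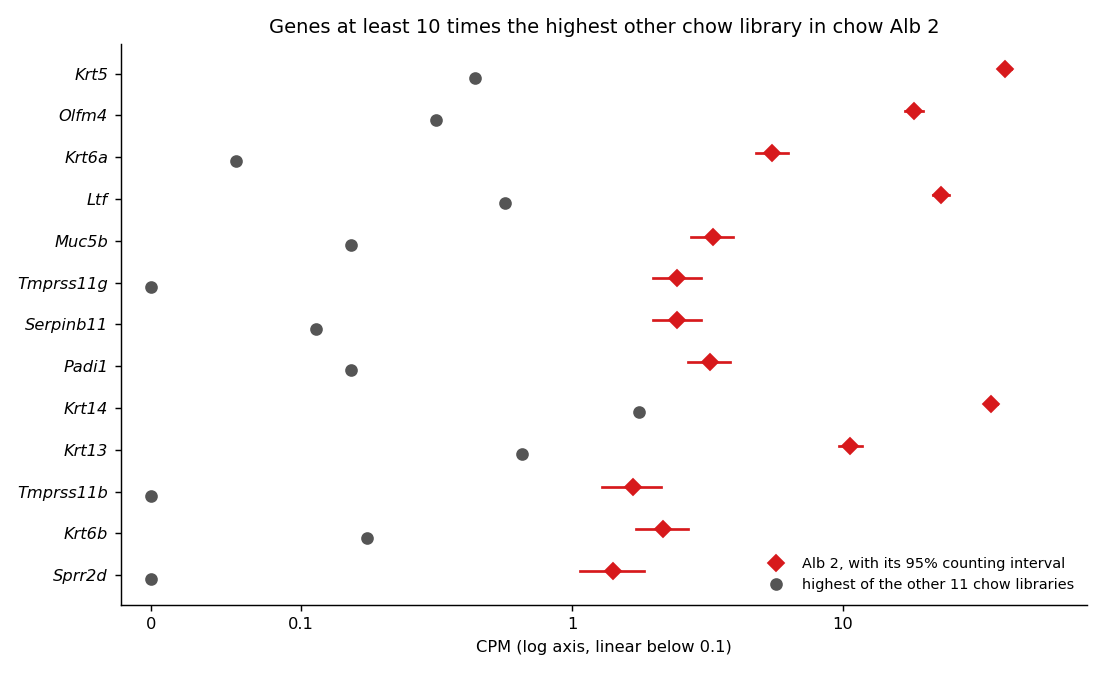
CPM (log axis, linear below 0.1) of the 13 genes that were at least 10 times higher in chow Alb 2 than in any other chow library. Red diamonds are Alb 2 with 95% counting intervals and grey circles the highest of the other 11 chow libraries. Krt5 stands at 39.8 against 0.439 CPM and Krt14 at 35.2 against 1.76 CPM.

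Within the keratin clusters the high genes of Alb 2 stood beside genes that were not high. Of 27 keratin genes on chromosome 15 in the table, 11 had at least 30 reads in Alb 2 and 3 were past the fold, the neighbours Krt6b, Krt6a and Krt5. Of 27 on chromosome 11, 11 had at least 30 reads and 2 were past the fold, Krt13 and Krt14. Krt17, a type I keratin of basal and appendage cells, had 157 reads in Alb 2 against 75 to 563 in the other chow libraries, although it lies in the same cluster as Krt14. Among the epidermal suprabasal keratins, Krt1 had 5 reads in Alb 2 against 0 to 14 in the other chow libraries, and Krt2 and Krt77 had none. Krt10 was at 4.95 CPM in Alb 2, above the highest of the other chow libraries at 4.26 CPM. Krt78 had 75 reads against 4 to 74 and Krt84 37 against 11 to 218. The 13 keratins grouped here as suprabasal, a loose list that also holds Krt75 and Krt84, summed to 11.6 CPM in Alb 2 against 5.46 to 16.4 CPM. Of these, 1 was past the fold (Krt6b). The keratins of columnar epithelium lay within the range of the other libraries, Krt8 at 4243 CPM in Alb 2 against 4119 to 6430 CPM and Krt20 at 542 CPM against 479 to 2572 CPM.

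**Figure D3:**
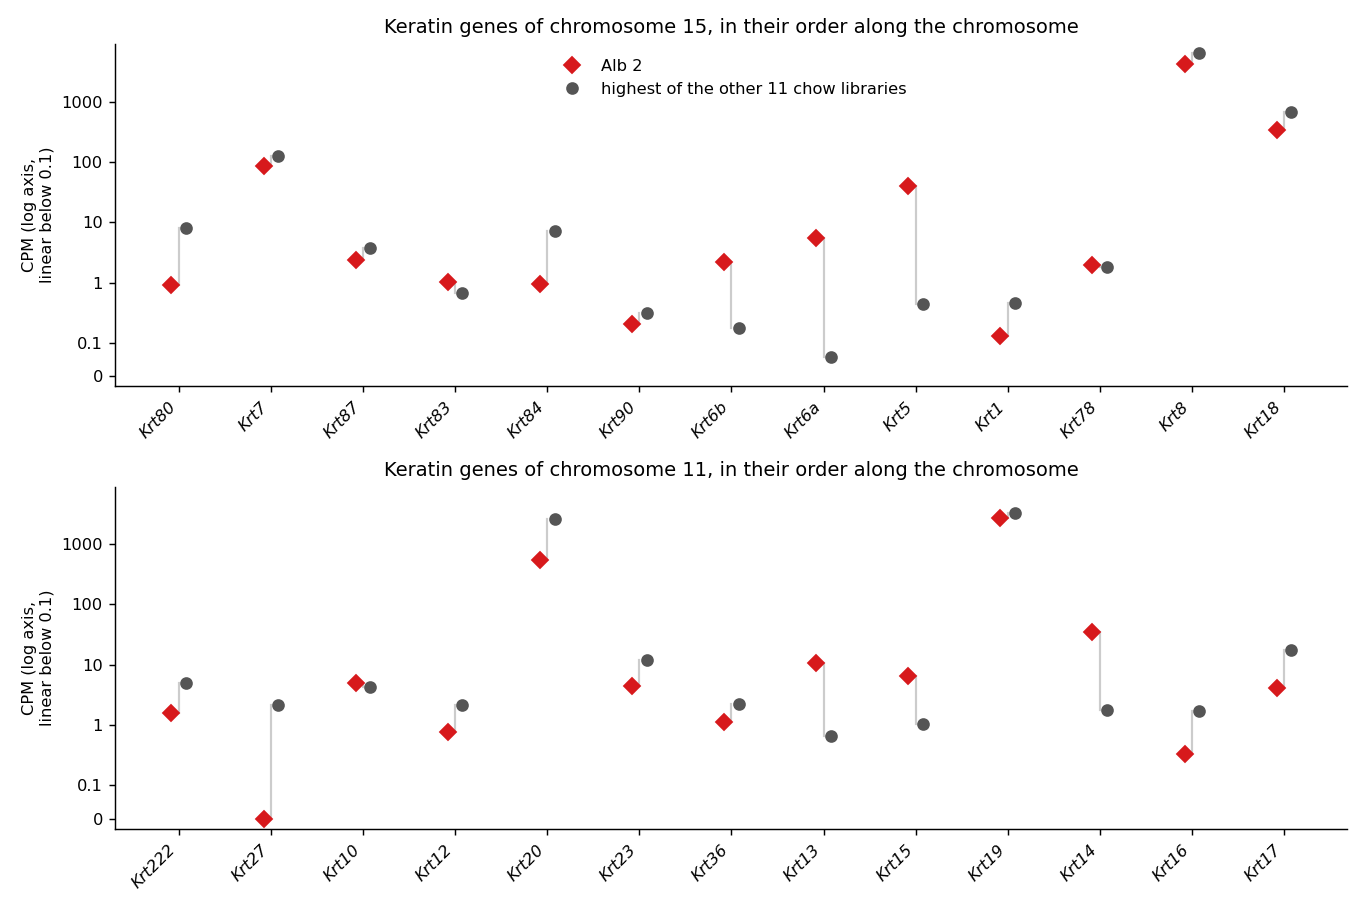
CPM (log axis, linear below 0.1) of keratin genes of chromosomes 15 and 11, in their order along each chromosome. Red diamonds are chow Alb 2 and grey circles the highest of the other 11 chow libraries. Krt6b, Krt6a and Krt5 stand side by side above their circles on chromosome 15. On chromosome 11 Krt13 and Krt15 do so, and Krt14 stands above its circle further along, beyond Krt19. Krt10, Krt78 and Krt83 lie above their circles by less, while Krt8, Krt19 and Krt17 do not lie above theirs.

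Sequence shared between keratins limits how the reads can be divided. In GENCODE vM21 transcripts, 45.7% of the 50-base words of Krt6a occur in another gene, 972 of them in Krt6b, against 13.9% for Krt14 (188 in Krt16 and 55 in Krt17) and 8.52% for Krt5 (150 in Krt6a). How reads that match both genes were counted is not known here, so the separate counts of Krt6a and Krt6b are uncertain. For Krt13, Krt4 and Trp63 no such word was shared, and for Krt15 and Dsg3 the share was 0.640% and 0.116%.

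Other squamous genes were followed through lists written with earlier results of these data known. Of 13 genes of basal squamous cytoskeleton and adhesion, 0 were past the fold and Col17a1, the hemidesmosome collagen, alone was highest in Alb 2, at 2.22 CPM against at most 0.667 CPM. The 4 with most reads, Dst, Itgb4, Itga6 and Lamb3, stood at 346, 267, 234 and 191 CPM in Alb 2 and below the highest of the other libraries, and the summed level of the list was 1415 CPM in Alb 2 against 1253 to 2084 CPM. Of 11 desmosome genes, 0 were past the fold and 2 were highest in Alb 2, Dsc3 with 49 reads against at most 30 and Dsg1b with 17 against at most 8. Dsp, Jup, Perp and Dsc2, the desmosome genes with most reads, stood at 723, 255, 223 and 136 CPM, below the highest other library, Dsg1c and Dsc1 had no read, and the list summed to 1492 CPM in Alb 2 against 1427 to 2361 CPM.

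Genes of late squamous differentiation were a mixed set. Of 34 cornified envelope genes, 1 (Sprr2d) was past the fold, 8 were highest in Alb 2 and 13 had no read there, among them Ivl, Flg, Flg2, Hrnr and Sprr3. Their summed level was highest in Alb 2, 4173 CPM against 388 to 3125 CPM in the other chow libraries, and almost all of it was Tgm3, a transglutaminase, at 3865 CPM against at most 2841 CPM. Evpl, Sprr2a1 and Casp14, the next by reads, stood at 119, 108 and 39.5 CPM in Alb 2 against at most 135, 324 and 28.1 CPM. Of 13 transcription factors of squamous cells, 0 were past the fold and Tfap2c, with 16 reads against at most 2, and Klf5, at 602 CPM against at most 582 CPM, were highest in Alb 2. Ovol1 and Zfp750 stood at 17.2 and 12.9 CPM, each below the highest other library. The sum of the list was 826 CPM in Alb 2, most of it Klf5, against 422 to 757 CPM in the other chow libraries. In HFD Vill, scaled separately, it reached 887 CPM.

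Markers of other tissues were summed as well. Of 21 skin appendage genes in the table, 15 had no read in Alb 2, and their summed level was 3.02 CPM against 1.05 to 4.23 CPM in the other chow libraries. Of the 14 with a read on chow, 3 were highest in Alb 2, among them Krt83 at 1.03 CPM against at most 0.675 CPM. Of 6 melanocyte genes, Tyr, Tyrp1, Mlana and Slc45a2 had no read, and the list summed to 4.85 CPM against 1.60 to 4.91 CPM. Of 9 sebaceous gland genes 4 had no read and the sum was 6.37 CPM against 6.59 to 15.6 CPM, and of 9 salivary and anal gland genes 5 had no read, Muc5b being the 1 past the fold, with a sum of 6.40 CPM against 4.65 to 18.9 CPM. The 10 genes of the female reproductive tract summed to 165 CPM in Alb 2 against 87.9 to 145 CPM, with Ltf past the fold and Wnt7a at 0. Stomach genes, 7 of 11 without a read, summed to 0.697 CPM against 0.305 to 2.76 CPM, and urothelium genes to 185 CPM against 167 to 274 CPM. Skeletal muscle genes, with Myh1, Myh4, Myh8 and Pvalb at 0, summed to 12.3 CPM against 8.15 to 32.2 CPM, and mammary gland genes, 3 of 5 at 0, to 0.0774 CPM against 0 to 0.283 CPM. Lists of the colon itself and its neighbour lay within the range of the other chow libraries, simple epithelial keratins at 7880 CPM against 7581 to 12648 CPM, colonocyte genes at 13826 CPM against 11046 to 29947 CPM, small intestine genes at 123 CPM against 85.8 to 1281 CPM and smooth muscle genes at 4466 CPM against 1028 to 11487 CPM. The part of any of these tissues in the levels of Krt5 or the other members was not tested.

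Genes that mark position along the gut also set Alb 2 at an end of the range, the list of 10 posterior genes summing to 737 CPM there against 36.3 to 590 CPM in the other chow libraries. Hoxd13 and Hoxb13, transcription factors of the hindgut's posterior end, stood at 151 and 476 CPM in Alb 2, and at 118 and 393 CPM in chow Vill 3, the next library for both. Vill 3 had 0 Krt5 reads, 0 Krt13 reads and 0 Krt6a reads, and Krt14 at 0.652 CPM. Chow ff 4, with 92.8 CPM of Hoxd13, had the next highest chow levels of Krt14, Krt13, Krt6a and Trp63 after Alb 2. Cdx2, an intestinal transcription factor, was lowest in Alb 2 at 24.3 CPM against 28.3 to 315 CPM in the other chow libraries, Muc2, the goblet cell mucin, was lowest at 1956 CPM against 2621 to 12643 CPM, and Slc26a3, the chloride exchanger of colonocytes, was highest at 3091 CPM against 663 to 1697 CPM. On HFD, ff 1 and ff 3 had Hoxb13 at 0 and 0.348 CPM and Krt14 at 0.260 and 0.174 CPM, the lowest Krt14 levels of the 20 libraries. The part of colon position in the member levels was not tested.

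**Figure D4:**
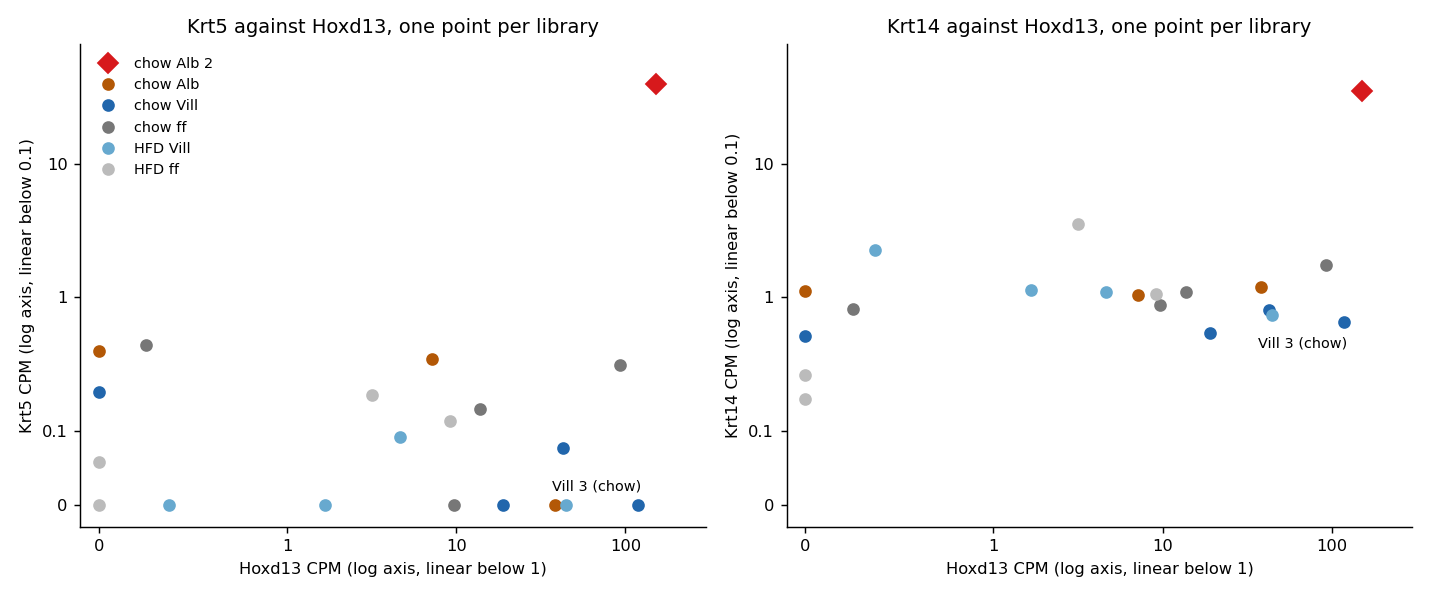
CPM of Krt5 (left) and Krt14 (right) against CPM of Hoxd13, one point per library in each of the 5 groups (log axes, linear below 0.1 on the vertical and below 1 on the horizontal axis); the red diamond is chow Alb 2. Alb 2 and chow Vill 3 lie close on the horizontal axis, at 151 and 118 CPM, with Krt5 at 39.8 and 0 CPM.

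Genes with levels like those of the members are given as a description. Over the 20 libraries, with log2(CPM + 0.5), Pearson's r with the mean of the 8 members was 0.945 for Tmprss11b and 0.931 for Olfm4, the 2 candidates outside the lists that were past the fold and in both tables. Both were candidates because they were high in Alb 2, as the members are, so these values of r largely restate that choice. Over the 19 libraries without Alb 2, with both tables and their separate scaling sharing the points, the highest values among 15638 genes were 0.820 for P4hb, 0.811 for Pex11g, 0.807 for Srp9, 0.803 for Serp1 and 0.798 for Pdzd11. None of these 5 was raised in Alb 2, whose reads lay below the highest other chow library for each.

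Outside Alb 2 the groups could be compared by tests other than the contrast that picked the members. The low levels of most members in these libraries were part of that contrast, and the members were chosen with earlier results known. The fit was edgeR's quasi-likelihood test on all genes that passed its expression filter, adjusted by the Benjamini-Hochberg method, with a call at an adjusted p under 0.05. On chow it used 11 libraries without Alb 2, and Krt5, Krt14, Krt15 and Dsg3 passed the filter while Krt13, Krt4, Krt6a and Trp63 had too few reads. On HFD Krt14, Krt13, Krt15 and Dsg3 passed and Krt5, Krt4, Krt6a and Trp63 did not. The labels name 4 replicates per group, taken here as 4 animals, and p-values measure the spread between the fitted libraries within groups. No member was called in any of the 3 comparisons.

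Chow Alb colons without Alb 2 did not differ detectably from ff colons in any tested member. Krt14 was at 1.11 ± 0.0783 CPM (SD, n = 3) in Alb and 1.14 ± 0.434 CPM (SD, n = 4) in ff, a log2 fold change of -0.01 (-0.76 to 0.73). Krt5 was at 0.247 ± 0.215 CPM in Alb and 0.224 ± 0.192 CPM in ff, a log2 fold change of 0.14 with a wide interval of -2.75 to 3.04. Krt15 had a log2 fold change of 0.38 (-0.78 to 1.54) and Dsg3 of -0.16 (-1.24 to 0.92). By edgeR 0 of 20104 genes were called (0%), 707 had an unadjusted p under 0.05, DESeq2 called 2 genes, and the adjusted p of each member was 0.999. The groups overlapped for all 8 members, where of all tested genes 1.88% lay wholly higher and 3.15% wholly lower in Alb, and a design of 3 against 4 animals cannot give an exact permutation p below 0.0571.

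In chow Vill against ff colons, Krt14 was the member whose groups separated. It averaged 0.628 ± 0.129 CPM in Vill and 1.14 ± 0.434 CPM in ff (SD, n = 4 each), a log2 fold change of -0.87 ± 0.32 (SE; 95% interval -1.57 to -0.17), or 54.8% of the ff level. Every Vill library lay below every ff library, with the exact two-sided permutation test at p = 0.0286, the smallest that 4 against 4 allows. Over all tested genes 0.731% separated in this direction and 0.647% in the other, and the difference failed the correction (edgeR quasi-likelihood, unadjusted p = 0.0200, Benjamini-Hochberg adjusted p = 1.00). Without ff 4, the highest ff library, the log2 fold change of Krt14 was -0.57. Of the 20104 genes tested, 1 passed the correction, Gm45774 (0.00497%), while an unadjusted p under 0.05 was reached by 368.

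The other members overlapped between chow Vill and ff. Krt5 was at 0.0675 ± 0.0915 CPM in Vill and 0.224 ± 0.192 CPM in ff (SD, n = 4 each), a log2 fold change of -1.80 whose interval, -4.79 to 1.19, spans no difference. The Vill colons held 8 Krt5 reads in all, 6 of them in Vill 1, so this group lies near the floor. With 1 library left out at a time the Krt5 value ran from -3.28, without Vill 1, to -1.26, without ff 2. Krt15 was at 0.610 ± 0.361 CPM in Vill and 0.468 ± 0.155 CPM in ff, a log2 fold change of 0.37 (-0.70 to 1.45). Dsg3 was at 1.79 ± 1.00 CPM in Vill and 1.28 ± 0.484 CPM in ff, a log2 fold change of 0.46 (-0.53 to 1.45). Krt17, a keratin that shares words with Krt14, had a log2 fold change of -0.90 (-2.03 to 0.23), with 6.92 ± 4.45 CPM in Vill and 12.8 ± 3.95 CPM in ff, and its groups overlapped. Among the members that the filter removed, Krt13 had 3 reads over the Vill colons and 33 over the ff colons, 23 of them in ff 4, and its exact two-sided permutation p over 4 against 4 libraries was 0.143. For Krt4 the exact permutation p was 0.371, and for Krt6a and Trp63 it was 1.

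On HFD, Krt13 varied over a wide range within both groups. It was at 1.14, 0.273, 0.581 and 3.57 CPM in Vill colons and at 0.0433, 0.669, 0.116 and 3.59 CPM in ff colons. Vill 4 and ff 4, with 77 reads each, thus stood above the rest in either group and above every chow library except Alb 2. The log2 fold change was 0.31 (-2.32 to 2.94), with means of 1.39 ± 1.496 CPM in Vill and 1.10 ± 1.68 CPM in ff (SD, n = 4 each).

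Krt14 was likewise spread on HFD. It was at 1.14, 1.09, 0.740 and 2.27 CPM in Vill colons and at 0.260, 1.06, 0.174 and 3.54 CPM in ff colons, again with Vill 4 and ff 4 highest. Its log2 fold change was 0.05 (-1.85 to 1.94), and without ff 1 and ff 3, the libraries nearly lacking Hoxb13, it was -0.81, while that of Krt13 was -0.62. Neither value passed the edgeR test, at a Benjamini-Hochberg adjusted p of 1.00. In Vill 4 and ff 4 the partner of Krt14, Krt5, had 0 and 4 reads, and Krt4, the partner of Krt13, had none.

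Krt15 and Dsg3 completed the HFD set. Krt15 was at 0.956 ± 0.315 CPM in Vill and 0.794 ± 0.344 CPM in ff, a log2 fold change of 0.25 (-0.72 to 1.23). Dsg3 was at 2.00, 0.772, 0.370 and 1.21 CPM in Vill colons and at 3.16, 0.551, 2.49 and 1.73 CPM in ff colons, a log2 fold change of -0.87 (-2.27 to 0.53). The highest Dsg3 levels were those of ff 1 and ff 3, and without these libraries the log2 fold change was -0.059. The groups overlapped for all 8 members, where 1.2% of all tested genes lay wholly higher and 0.898% wholly lower in Vill. Adjusted p over 17715 genes by edgeR with Benjamini-Hochberg was 0.932 for Dsg3 and 0.957 to 0.998 for the other tested members, in a comparison with 1 called gene, again Gm45774 (0.00564%), and 612 at an unadjusted p under 0.05. Krt5, Krt4, Krt6a and Trp63 had at most 5 reads in any HFD library, and Krt4 and Trp63 reached 5 in ff 1. Their exact two-sided permutation p over 4 against 4 libraries was 0.257 for Krt5, 0.714 for Krt4 and Krt6a, and 1 for Trp63.

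**Figure D5:**
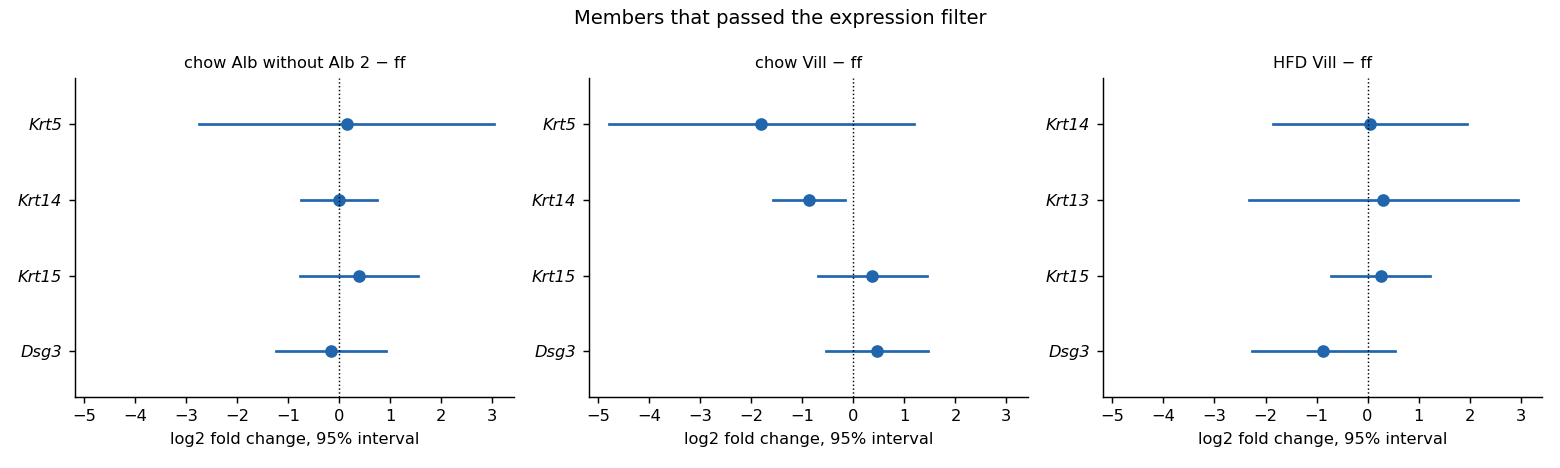
Log2 fold changes with 95% intervals (edgeR) of the members that passed the expression filter, for chow Alb without Alb 2 over ff, chow Vill over ff and HFD Vill over ff. Of the intervals drawn, that of Krt14 in chow Vill (-1.57 to -0.17) lies wholly on one side of 0.

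Across the 5 groups without Alb 2, the means of Krt13, Krt14 and Krt15 were higher in both HFD groups than in every chow group. Those of Dsg3, Krt5, Krt4 and Trp63 were not. Krt6a kept the same order, but with all means below the floor: 0.0483 CPM in HFD Vill and 0.0145 CPM in HFD ff, against 0.0142 CPM in chow ff and 0 in the other chow groups. Krt13 averaged 1.39 ± 1.496 CPM in HFD Vill and 1.10 ± 1.68 CPM in HFD ff, with SDs above the means. It averaged 0.240 ± 0.287 CPM in chow ff, 0.0692 ± 0.120 CPM in chow Alb and 0.0252 ± 0.0359 CPM in chow Vill. Krt14 was at 1.31 ± 0.665 CPM in HFD Vill, 1.26 ± 1.57 CPM in HFD ff, 1.14 ± 0.434 CPM in chow ff and 1.11 ± 0.0783 CPM in chow Alb, neighbours that differ by less than their SDs, and was lowest in chow Vill. Krt15 ran in the order HFD Vill, HFD ff, chow Vill, chow Alb and chow ff, from 0.956 to 0.468 CPM, with each neighbouring pair within its spread. For Dsg3 the order was HFD ff at 1.98 ± 1.12 CPM, chow Vill at 1.79 ± 1.00 CPM, chow ff at 1.28 ± 0.484 CPM, chow Alb at 1.13 ± 0.142 CPM and HFD Vill at 1.09 ± 0.700 CPM. Each step was smaller than the larger SD of its pair. None of these differences between diets was tested, since diet, age and sex differ together.

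The lists of related genes gave no call in any of the comparisons. Over the 19 lists, 222 entries stand in the chow table and 123 were tested, a gene in several lists counting in each. Of the tested entries 59 were higher and 64 lower in Alb without Alb 2, and 54 higher and 69 lower in Vill, each against ff. Over all tested genes 48.5% were higher and 51.5% lower in Alb, and 47.8% higher and 52.2% lower in Vill. On HFD 102 of 168 entries were tested, with 61 higher and 41 lower in Vill, against 49.3% higher and 50.7% lower over all tested genes. Of the basal squamous genes, 12 of 13 were tested, and in chow Vill 11 of these were lower than in ff with a median log2 fold change of -0.08, beside a median of -0.01 over all tested genes. On HFD 10 of 12 were higher in Vill, with a median of 0.22 beside 0.00 over all tested genes. All 6 tested desmosome genes were higher in HFD Vill, with a median of 0.31, and in chow Vill colons 3 of the 7 tested were higher. Markers of other cells moved beside these lists, also without a call. All 10 smooth muscle genes were lower in chow Vill than in ff, with a median log2 fold change of -0.52, and all 10 were higher in Alb without Alb 2, with a median of 0.56. All 6 tested genes of posterior position were lower in Alb without Alb 2, with a median of -0.82. In HFD Vill 5 of 6 simple epithelial keratins were higher, with a median of 0.28, and 7 of 10 colonocyte genes, with a median of 0.16. The tested genes of posterior position had a median of 0.63 in HFD Vill, with 3 of 5 higher, and those of small intestine a median of -0.66, with 5 of 6 lower. The part of these differences in the values of the squamous and desmosome lists was not tested. The smallest adjusted p of these lists, from edgeR with Benjamini-Hochberg, was 1.00 on chow Vill and 0.932 on HFD.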

How the data were processed

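Counts of reads per gene, the authors' deposited FPKM, and log2 fold changes with adjusted p-values from the authors' deposited tables were used as given in the files. Per the submitters' processing notes, the tools were edgeR 3.22.5, DESeq2 1.20.0, featureCounts 1.5.0-p3 and HISAT2 2.0.5, on build mm39; the role of each tool and the strand setting are not given in the sources used here, so reads of overlapping genes on opposite strands may be mixed. FPKM served for comparisons between genes, and 8 further per-sample columns were not used. Groups and replicates follow the titles in the labels.

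Counts were tested with edgeR 4.0.16 under R 4.3.3 (quasi-likelihood F test, TMM, filterByExpr, Benjamini-Hochberg over all tested genes). Chow was fitted on 11 libraries, leaving out Alb 2, and HFD on 8. Single members were compared by exact two-sided permutation over 70 assignments (4 against 4) or 35 (3 against 4), for 8 members in 3 comparisons, unadjusted. Alternatives were limma-voom from limma 3.58.1 and DESeq2 1.42.0. The script was tested on simulated data. Likeness used log2(CPM + 0.5); over 20 libraries its candidates were genes past the fold in Alb 2, and over the 19 without Alb 2 genes with a mean of at least 1 CPM.

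The members and the 19 lists (225 entries) were chosen with earlier results of these data known. For the squamous lists the 4 genes with most reads in Alb 2 are named; lists of other tissues are given as sums, and 1 list member is not reported here. Apart from called genes and the genes most alike the members, further names were chosen after their values were seen.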

Additional observations from a re-analysis of the deposited data

Results flagged for a closer look

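In 11 of 31 combinations of member and group with more than 3 reads in some library, 1 library stood far from the other 3 of its group by Dixon's test. Chance flags about 1 in 20 groups, but the count is not to be read against that share, since the members were chosen for their levels in Alb 2. In chow Alb the library was Alb 2 for all 8 members, which restates that choice and supports nothing, with Krt5 at 39.78 CPM, Krt14 at 35.21, Krt13 at 10.65, Krt15 at 6.553, Krt6a at 5.469, Dsg3 at 3.225, Trp63 at 1.496 and Krt4 at 0.1032 CPM. The highest of the other Alb libraries was at 0.395 CPM for Krt5, 1.19 CPM for Krt14, 1.24 CPM for Dsg3 and 0 for Krt4 and Krt6a. The Krt4 value rests on 4 reads. The other flags rest on few reads as well: Krt4 in chow ff 3 at 0.1162 CPM (4 reads), Trp63 in chow ff 4 at 0.1705 CPM (6 reads) and Trp63 in HFD ff 1 at 0.2167 CPM (5 reads), each with 0 reads in the rest of its group.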

How the results depend on the processing

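No member was called in any of the 3 comparisons under RLE size factors, no expression filter, DESeq2, limma-voom, the replicate block or any left-out replicate, nor with Alb 2 included or HFD ff 1 and 3 left out. Genes called in chow Vill against ff numbered 2 with no expression filter, 5 with DESeq2, 0 with limma-voom and 0 with the replicate block, against 1 as reported. In chow Alb without Alb 2 DESeq2 called 2, and on HFD DESeq2 and the fit without ff 1 and 3 called 2 each. Same-numbered libraries correlated at -0.45 to 0.53 in their deviations from the group means, so the replicate block was not taken as a pairing, and it changed no member's call. At 20-fold, 8 genes and 2 members were past the fold in Alb 2; with plain library totals the counts were 13 and 4.

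Several differences turned in sign or moved in size. In Alb against ff, limma-voom gave -0.077 for Krt5 and 0.050 for Krt14, and the fit with Alb 2 gave 3.08 for Krt14 and 0.38 for Dsg3, by the addition of that library. Leaving out 1 replicate gave log2 fold changes of -0.37 to 0.74 for Krt5, -0.13 to 0.28 for Krt14 and -0.36 to 0.012 for Dsg3. In chow Vill against ff, Krt5 ranged from -3.28 (without Vill 1) to -1.26 (without ff 2), Krt15 from -0.011 (without Vill 3) to 0.63 and Krt14 from -1.01 to -0.57 (without ff 4). On HFD the ranges were -0.35 to 1.35 for Krt14, -0.74 to 2.25 for Krt13 and -0.017 to 0.41 for Krt15, and without ff 1 and 3 Krt14 was at -0.81, Krt13 at -0.62 and Dsg3 at -0.059, the last against -0.87 as reported. The cause was not tested.

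Depth limits the members with few reads: Krt4, Krt6a and Trp63 outside Alb 2, Krt5 on HFD, and Krt5 and Krt13 in chow Vill lie near the floor of 3 reads. Differences between groups were not detectable there. Alb 2 is 1 animal, so its levels have no replicate.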
